A study of Mus musculus with 19 samples.

Results

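The genes examined were those that encode the proteins of the cytosolic ribosome, in hepatocytes of young and old mice. They were taken from the deposited table by symbol: names that begin with Rpl or Rps and a number, with Rplp0, Rplp1, Rplp2 and Rpsa, carrying a RefSeq protein-coding transcript, and without the S6 kinases (Rps6k). This gave 89 of the 24537 genes in the table. By name and known role, 76 of the 89 are the standard ribosomal proteins, 30 of the small (40S) and 46 of the large (60S) subunit. A further 7 are paralogs (Rpl3l, Rpl7l1, Rpl10l, Rpl22l1, Rpl36al, Rpl39l and Rps27l), 5 are copies of standard genes, and 1, Rps19bp1, encodes a partner of Rps19 that is not part of the ribosome. Fau and Rack1, whose products also sit in the ribosome, do not match by name. The rows for Rps27 and Rps4l carry non-coding transcripts, so they were left out of the 89 and are used below only in ratios of paralogs.

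All 19 mice were wild-type (WT) C57BL/6J males, and each gave 1 library of poly(A) RNA. The young group held 10 mice labelled 5 months old and the old group 9 mice labelled 24 months old. Hepatocytes carry out most of the liver's metabolism. They had been freed by perfusing the organ in steps. The mice were culled on 2 days that lay 23 days apart, with 5 young and 5 old mice on the first day and 5 young and 4 old on the second. No treatment or altered allele is given for any group. Mice are named by their library numbers.

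Each library held between 17381439 and 20287628 counts over genes. Albumin (Alb), the main secreted protein of hepatocytes, took 5.82% to 6.29% of counts in young mice 1184, 1186 and 1188, all of the first cull day, and 10.2% to 15.4% in the other mice, so results that rest on those 3 mice are also given without them. Of 15 tested hepatocyte markers, 2 were higher and 4 lower in old mice, beside 16.3% higher and 14.5% lower of all tested genes. Markers of macrophages, endothelial and stellate cells were higher in old mice. Here 14 of 14 tested macrophage genes, 11 of 14 endothelial genes and 11 of 12 stellate cell genes passed the test. Of other types few markers were tested: 0 of 2 passed in cholangiocytes, 0 of 1 in T and NK cells, and 1 of 1 each in B cells and neutrophils. Over 42 markers of other cells, the mean log2 CPM (each library's counts put on the same total) was taken. It ran from 2.17 to 3.65 in young and from 2.40 to 5.57 in old mice. Summed CPM of the macrophage markers ran from 104 to 497 in young (median 182) and 71.1 to 3421 in old mice (median 489). None of those macrophage, endothelial or stellate genes passed by cull day. In bulk RNA, fewer cells of a type and less RNA per cell cannot be told apart.

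A ribosome holds a single copy of nearly every ribosomal protein, so cells make these proteins in balanced amounts. Their messenger RNAs are among the most abundant and shortest in the cell. In vertebrates they begin with a run of pyrimidines (C and U), the 5′ terminal oligopyrimidine or TOP tract, through which mTOR signalling and the RNA-binding protein Larp1 control their translation and stability. The liver makes much of the plasma's protein and so depends on this machinery.

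Levels per length were close together for most standard members. In RPKM (CPM divided by the exon length in kilobases), the median over the 76 standard genes was 212, with quartiles of 164 and 278, and 66 of the 76 lay within 2-fold of that median. The highest was Rps2, a small subunit protein at the messenger RNA entry channel, at 751 ± 107 RPKM (SD, n = 19). Rpl10, which completes the late assembly of the large subunit, followed at 492 ± 47.1, and Rps14, part of the small subunit platform, at 437 ± 78.1. The lowest were Rps15a at 9.83 ± 1.55, Rps20 at 34.4 ± 6.02 and Rpl22 at 45.5 ± 7.18 RPKM. Rps15a and Rps20 were counted over transcripts of 5127 and 3440 bases, against a median of 686.5 bases over the tested members, and a longer transcript lowers a value per length. All members together took 1.08% to 1.79% of a library's counts.

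Of the 89 members, 84 passed the filter on low counts and were tested. The other 5 were Rpl3l, a paralog known from heart and skeletal muscle, with 0 to 2 counts in any library, Rpl39l with 0 to 1, Rpl31-ps12 with 0 to 2, Rpl32l with 0 to 8, and Rpl10l, known from testis, with 0. A library at 0 counts does not exclude up to 3 counts. Some rows share reads. The row named Rps27rt lies on Rps27 (chr3:90212667-90213647, mm10) and that named Rpl34-ps1 lies on Rpl34, so each pair of rows reads largely the same fragments and their values are not independent.

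No ribosomal protein gene was higher or lower in old hepatocytes by the test used. With edgeR's quasi-likelihood test and Benjamini-Hochberg adjustment over all genes, 0 of 84 members passed an adjusted p of 0.05 by age, whereas 30.9% of the 12269 tested genes did, 16.3% higher and 14.5% lower. At an unadjusted p under 0.05 there was 1 member, Rpl7l1. limma-voom called 0 members, with 16.9% of all genes higher and 15.7% lower, and DESeq2 called 1 lower, again Rpl7l1, with 17.2% of all genes lower. The fitted log2 fold changes of old over young ran from -0.20 to 0.18, with 66 of 84 above 0 and a median of 0.05, beside a median of -0.00341 over all genes tested. The 30 standard small subunit genes had a median of 0.06 and the 46 large subunit genes 0.04. In no member did every old mouse lie above, or every old mouse below, all young mice, which held for 0.994% and 0.725% of all tested genes.

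A p that misses the threshold does not show that a level was equal, and the intervals say how large a change these mice leave room for under the main scaling. The choice of scaling is not part of the intervals, and other scalings described below moved the fitted differences. The 95% interval of the age difference lay within 0.5 log2 units of 0 for all 84 members, that is between 0.707-fold and 1.41-fold. For 48 of the 84 it lay within 0.25 log2 units. The widest upper bound was 0.48, of Rpl37rt, and the lowest lower bound -0.37, of Rpl7l1. Standard errors ran from 0.06 to 0.15, with a median of 0.09 on the log2 scale.

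**Figure D1:**
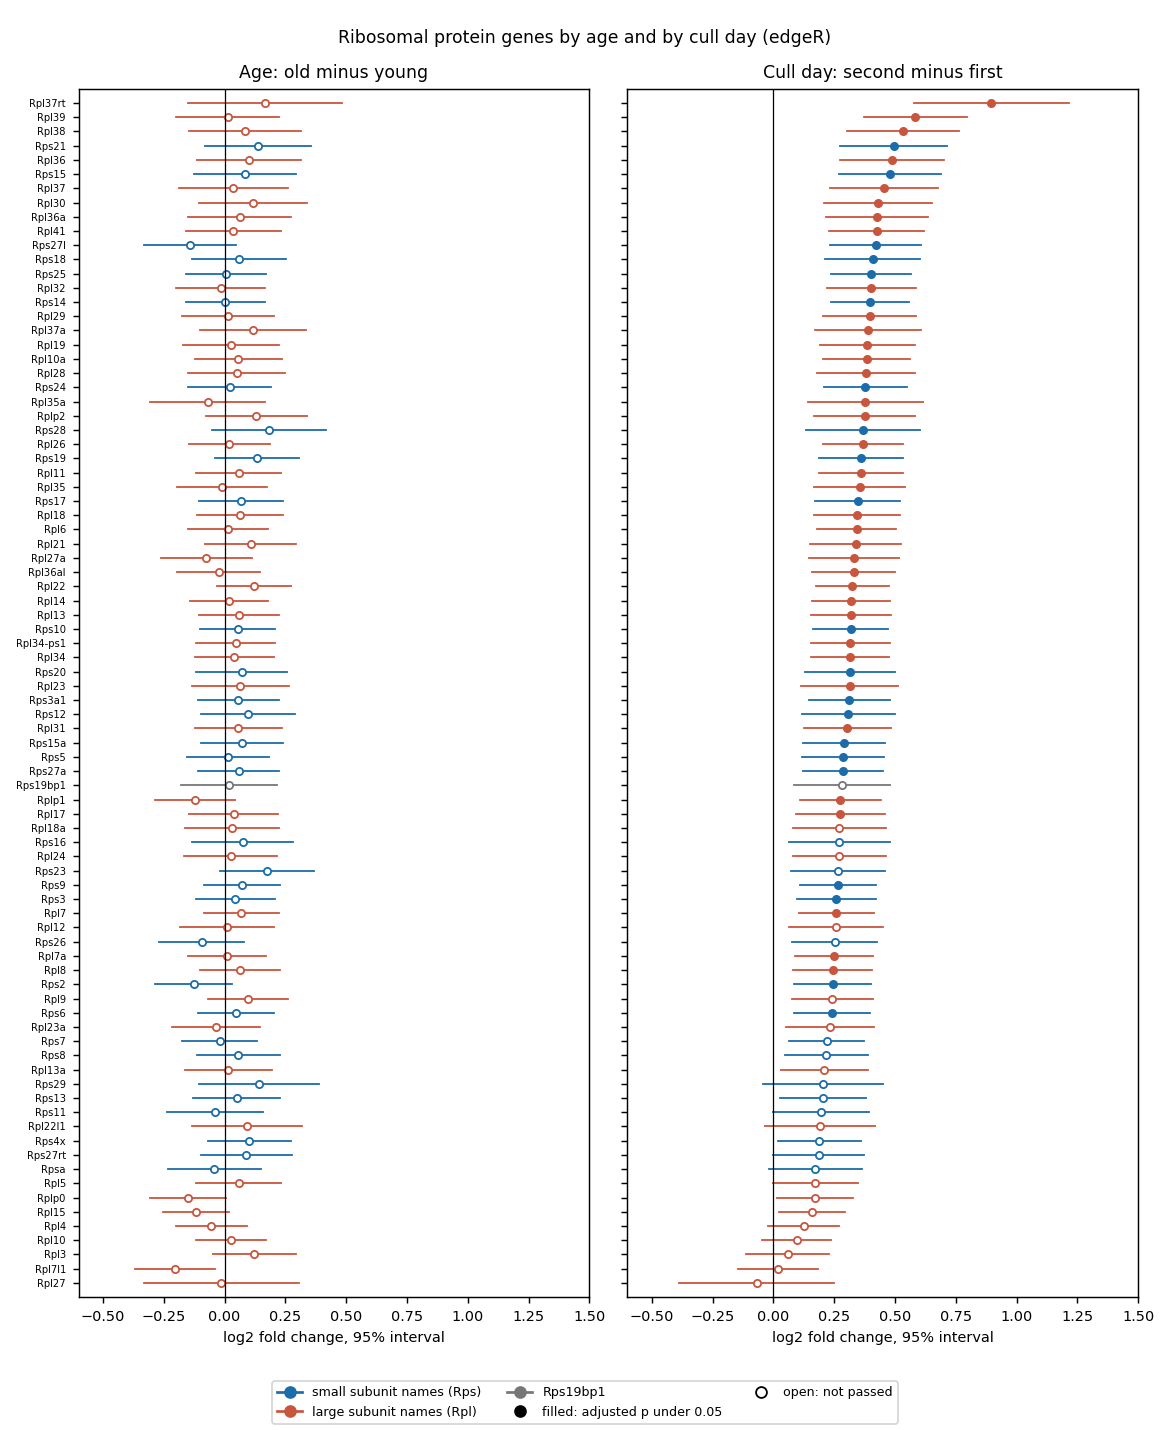
Fitted log2 fold change of each of the 84 tested genes with its 95% interval, by age on the left (old minus young) and by cull day on the right (the second minus the first), coloured by subunit. Filled points passed an adjusted p of 0.05: 0 of 84 by age and 57 of 84 by cull day, all 57 to the right of 0. Of all tested genes 30.9% passed by age, and 5.72% were higher by cull day. Without young mice 1184, 1186 and 1188, 0 of 84 members and 0% of all genes passed by cull day.

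Members with defined extra roles were examined by name. Rpl5 and Rpl11 bind 5S ribosomal RNA and, when unassembled, the p53 ligase Mdm2. Rpl5 lay at 212 to 301 CPM in young mice (median 250) and 193 to 316 in old mice (median 251), and Rpl11 at 122 to 219 (median 156) and 134 to 217 (median 165). The ages overlapped over most of their range for both genes, and the log2 differences were 0.06 for Rpl5 (95% interval -0.12 to 0.23) and 0.06 for Rpl11 (-0.12 to 0.23). Rps6, the substrate of the S6 kinases, lay at 227 to 310 CPM in young and 195 to 327 in old mice, with a difference of 0.05 (-0.11 to 0.20). Rps27a, made as a fusion with ubiquitin, differed by 0.06 (-0.11 to 0.22). Rpsa, whose product is also described as a laminin receptor, differed by -0.04 (-0.23 to 0.15).

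The 3 stalk genes did not share a sign. Rplp0 encodes the base of the stalk that recruits translation factors, and Rplp1 and Rplp2 the acidic proteins bound to it. Rplp0 lay at 341 to 461 CPM in young mice (median 397) and 277 to 444 in old mice (median 348), with a log2 difference of -0.15 ± 0.07 (SE) and an edgeR adjusted p of 0.129. Rplp1 differed by -0.12 (95% interval -0.29 to 0.04) and Rplp2 by 0.13 (-0.08 to 0.34). None of the 3 passed the test, and all 3 overlapped between ages.

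The members with the smallest age p after Rpl7l1 and Rplp0 are named here after their values were seen. Rps23, a protein of the decoding centre, lay at 107 to 169 CPM in young mice (median 136) and 123 to 214 in old mice (median 145), a log2 difference of 0.17 (adjusted p = 0.159 by edgeR). Rpl15 differed by -0.12 (adjusted p = 0.170 by edgeR) and Rps2 by -0.13 (adjusted p = 0.207 by edgeR). Each of the 3 overlapped between ages.

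The count by age stayed at 0 within each cull day. On the first day alone 0 of 84 members passed edgeR's test (1 at an unadjusted p under 0.05), with 3.67% of all genes called, and on the second day alone 0 of 84 (2 unadjusted), with 19.3% called. The members' median log2 differences were 0.02 and 0.06. With the markers of other cells entered as a covariate (their mean log2 CPM) 0 of 84 passed (0 unadjusted) and 11.6% of all genes did. Without young mice 1184, 1186 and 1188 it was again 0 of 84 (1 unadjusted), with 14.6% of all genes called higher and 12.5% lower. Whether the age difference itself depended on the cull day was tested by an interaction term: 0 of 84 members and 0% of all genes passed, at unadjusted p under 0.05 there were 0 members and 799 genes, and DESeq2 called 0 members, with 0.0652% of all genes positive and 0.0163% negative. The smallest adjusted interaction p of a member was 0.796 by edgeR.

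The count by age rose above 1 under 2 other ways of scaling. When each library's counts were corrected for a trend with exon length and GC content fitted on the other genes, 11 of 84 members passed, 8 higher and 3 lower, with 17.3% of all genes called higher and 16.5% lower. The 8 were Rpl37a, Rpl7, Rpl9, Rps21, Rps23, Rps27rt, Rps28 and Rps4x, at log2 differences that included 0.29 for Rps23. The 3 were Rpl7l1, Rplp0 and Rps2, which included -0.16 for Rplp0. When libraries were scaled by their totals without Alb and without the members, Rpl22, Rpl3 and Rps23 passed as higher. That scaling raised the median over all genes to 0.10 and called 23% of all genes higher and 5.67% lower, and the members' median was 0.15.

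Cull day was the larger difference among these genes. On the second day 57 of 84 members were higher than on the first at an edgeR adjusted p of 0.05, and 0 of 84 were lower (73 had an unadjusted p under 0.05), while 5.72% of all tested genes were higher and 6.55% lower, 12.3% in all. DESeq2 called 66 and limma-voom 65, all higher, with 7.38% and 8.27% of all genes higher. The count was 0 of 84 without young mice 1184, 1186 and 1188, where 0% of all genes were called, and 4 of 84 after correction for exon length and GC content, where 0.827% of all genes were called higher. The members' median was 0.31 on the log2 scale, or 1.24-fold, beside -0.03 over all genes. In 83 of 84 the fitted difference was above 0, and the exception was Rpl27. The call covered 20 of 30 standard small subunit genes, 33 of 46 large subunit genes, 2 of 3 tested copies and 2 of 4 tested paralogs. Rplp1, Rplp2, Rps6, Rps27a and Rpl11 were among those that passed, and Rplp0, Rpl5 and Rpsa, each at a difference of 0.17, were not. Outside the symbol rule, Fau (0.40) passed and Rack1 (0.21) did not.

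The 8 members with the smallest cull day p were Rpl37rt, Rpl39, Rps14, Rps25, Rpl38, Rps15, Rpl36 and Rps21. Rpl39, a small protein of the peptide exit tunnel (chrX:37082518-37085222), had 55.5, 66.7, 64.2, 50.5 and 65.2 CPM in the young and 52.7, 67.8, 51.5, 75.1 and 56.3 in the old mice of the first day. On the second day it had 76.5, 73.7, 96.5, 115 and 89.5 CPM in the young and 79.5, 83.5, 84.5 and 118 in the old mice. Only young mouse 1237, at 73.7 CPM, lay below the highest mouse of the first day, old mouse 1187. The fitted difference was 0.58 ± 0.10 (SE), or 1.499-fold, with an edgeR adjusted p of 0.00764.

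Rps14 lay at 196 to 261 CPM on the first day and 252 to 353 on the second, with a log2 difference of 0.40 ± 0.08 (SE). In Rps25, a protein of the small subunit head (chr9:44407714-44410406), the ranges were 109 to 143 and 135 to 197 CPM and the difference 0.40 ± 0.08 (SE). In both, at least 7 of the 9 mice of the second day lay above all 10 of the first. Rpl38, known for its part in translating Hox messages in the embryo (chr11:114668543-114672331), lay at 41.3 to 64.1 and 52.7 to 96.8 CPM, with a difference of 0.53 ± 0.11 (SE).

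Rps15 (chr10:80292431-80294114) differed by 0.48 ± 0.10 (SE), Rpl36 (chr17:56613395-56614246) by 0.49 ± 0.10 and Rps21 (chr2:180257379-180258444) by 0.49 ± 0.10. Rps21 lay at 43.9 to 83.2 CPM on the first day and 73.3 to 119 CPM on the second, and these ranges overlapped. Rpl37rt, a low row at 1.34 to 2.60 CPM on the first and 1.98 to 4.91 CPM on the second day, had the largest fitted difference of the members, 0.90 ± 0.15 (SE). Its name marks it as a relative of Rpl37, and how reads were split between such rows is not given in the sources used here.

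Rpl27 stood apart from the other members, and is named after its values were seen. On the first day it lay at 55.2 to 78.0 CPM. On the second day 79.1 and 87.3 CPM were measured in young mice 1235 and 1237 and 92.0 in old mouse 1236, and 50.8, 56.7 and 44.6 in young mice 1239, 1243 and 1244 with 41.2, 38.4 and 60.2 in old mice 1238, 1240 and 1242. The split ran across both ages. Its cull day difference was -0.07 ± 0.15 (SE).

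A further fit gave each age its own cull day difference. In young mice 9 of 84 members were higher on the second day by edgeR (51 unadjusted), with 2.98% of all genes higher. In old mice 0 of 84 passed (64 unadjusted), with 0% of all genes called, and the smallest adjusted p of a member was 0.301. The members' median difference was 0.27 in young and 0.32 in old mice, with 82 and 83 of 84 above 0, beside medians of -0.00827 and -0.04 over all genes. Acute phase genes, which the liver induces in inflammation, moved by cull day in the young mice: 8 of 16 were lower on the second day by edgeR, with 3.75% of all genes lower. Their median difference was -1.91. In old mice 0 of 16 were called, with 0% of all genes, and the median was 0.10. By the interaction test of age by cull day 0 of these 16 genes passed, with 0% of all genes (13 unadjusted, smallest adjusted p 0.602 by edgeR). Their median deviation from the gene mean was 1.37, 2.06 and 0.89 in young mice 1184, 1186 and 1188, -1.26 to -0.64 in the other young mice and -0.68 to 1.05 in old mice. Their part in the members' cull day difference was not tested. Each age was also fitted by itself. Among young mice alone 5 of 84 members passed edgeR's test as higher (62 unadjusted), namely Rpl10a, Rpl32, Rpl37rt, Rpl39 and Rps27l, with 1.08% of all genes called higher. Among old mice alone 0 of 84 passed (52 unadjusted), with 0% of all genes called. Without young mice 1184, 1186 and 1188 the count by cull day was 0 of 84, with 0% of all genes called either way and 69 members at an unadjusted p under 0.05, and Rpl39 still differed by 0.58. Leaving out old mouse 1242 or young mouse 1243 each brought the count of 57 to 35, and the share of all genes called higher from 5.72% to 2.73% or 2.49%.

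The members moved together from mouse to mouse. For each mouse the median was taken over the 84 genes of log2 CPM minus the gene's own mean over the 19 mice. On the first day it was -0.23, 0.07, -0.12, -0.26 and -0.17 in young mice 1180, 1182, 1184, 1186 and 1188, and -0.34, 0.11, -0.22, -0.02 and -0.20 in old mice 1181, 1183, 1185, 1187 and 1189. On the second day it was 0.06, -0.10, 0.17, 0.36 and 0.17 in young mice 1235, 1237, 1239, 1243 and 1244, and 0.35, 0.03, -0.01 and 0.40 in old mice 1236, 1238, 1240 and 1242. High and low mice were found at each age, and the days overlapped.

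Single mice held most of the extremes. Old mouse 1181 was below the gene's mean in all 84 members and had the lowest value in 40 of them, and young mouse 1186 had the lowest in 21. Old mouse 1242 had the highest value in 45 members, young mouse 1243 in 20 and old mouse 1236 in 17, and each of these 3 lay above the gene's mean in 83 of 84. As a share of all counts, members took 1.26% ± 0.108 (SD) in the 5 young libraries of the first day and 1.31% ± 0.241 (SD) in its 5 old libraries. On the second day the 5 young libraries gave 1.503% ± 0.147 (SD) and the 4 old libraries 1.59% ± 0.198 (SD).

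**Figure D2:**
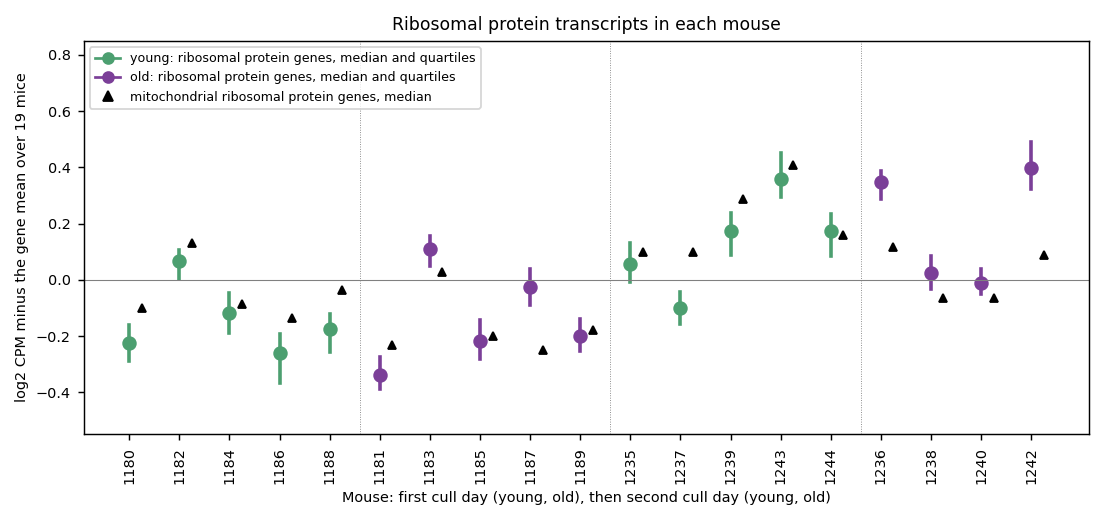
For each of the 19 mice, the median (circle) and quartiles (bar) over 84 ribosomal protein genes of log2 CPM minus the gene mean, with the median over mitochondrial ribosomal protein genes as a triangle, ordered by cull day and age. The circles run from -0.34 in old mouse 1181 to 0.40 in old mouse 1242, and the ages overlap on each day.

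**Figure D3:**
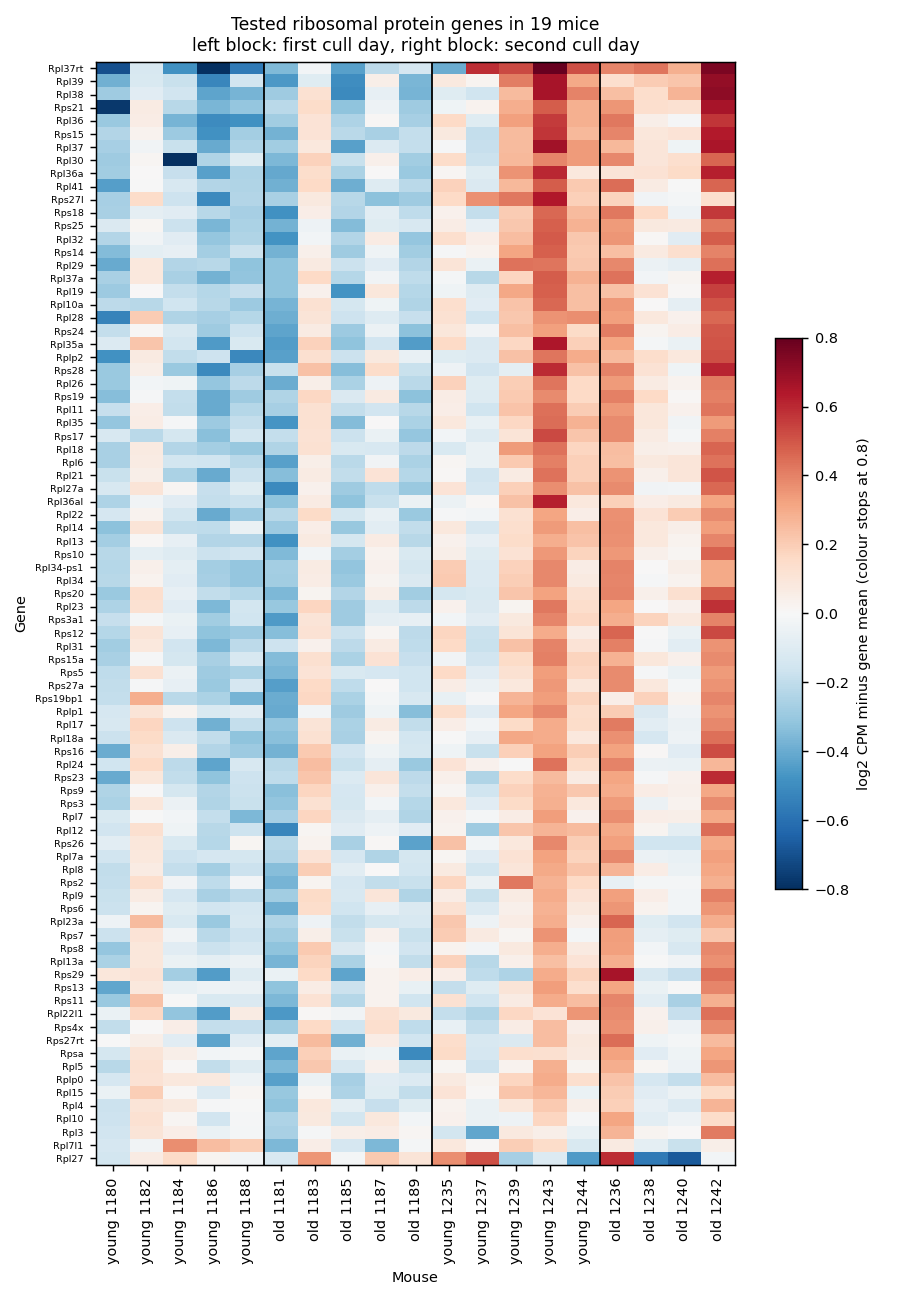
Log2 CPM minus the gene mean for 84 genes (rows, ordered by cull day difference) in 19 mice (columns), with colour limited to 0.8 log2 units either way. Whole columns are red or blue: old mouse 1242 had the highest value in 45 genes and old mouse 1181 the lowest in 40.

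Exon length moved with the cull day difference in all genes, and the members are short. Across the 84 members Spearman's rho between counted exon length and the cull day log2 difference was -0.43, and across the 12185 other tested genes it was -0.48. These are descriptions across genes of the same libraries, which are not independent of each other. Below 500 bases the median cull day difference was 0.38 in 19 members and 0.34 in 131 other genes, and 78.9% and 47.3% of them were called higher. From 500 to 1000 bases it was 0.31 in 45 members and 0.21 in 751 other genes, with 68.9% and 25.03% called higher. In the few longer members the medians also lay above those of other genes. From 1000 to 1500 bases the medians were 0.27 in 11 members and 0.13 in 1257 other genes, with 54.5% and 12.9% called higher. From 1500 to 2500 bases they were 0.22 in 6 members and 0.05 in 3010 other genes, with 3 of the 6 and 5.18% called higher. At 2500 bases or more it was 0.29 in 3 members, of which 2 were called higher, and -0.12 in 7036 other genes, of which 1.09% were. By age the length relation was weaker, with a rho of -0.20 in members and -0.06 in other genes.

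With the length and GC trend fitted on the other genes and taken out of each library, 4 of 84 members were higher on the second day (38 unadjusted), with 0.827% of all genes called higher. The 4 were Rpl37rt at 0.71, Rpl22 at 0.30, Rps15a at 0.44 and Rpl39 at 0.38. The other 6 of the 8 members named above were between 0.17 and 0.29 and did not pass. The part of length in the members' cull day difference was not tested further.

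**Figure D4:**
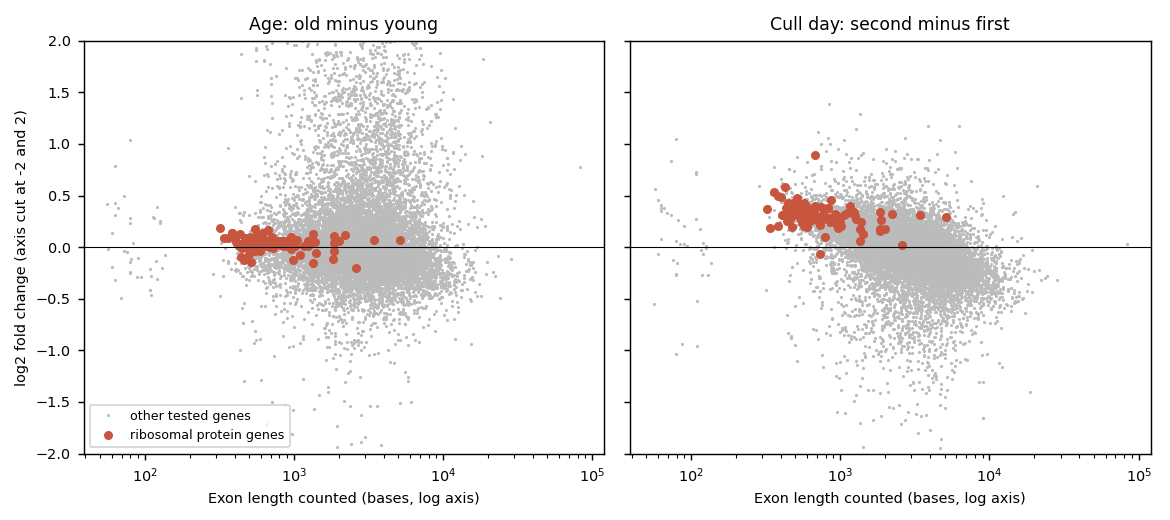
Log2 fold change against counted exon length (log axis) by age on the left and by cull day on the right, for 84 ribosomal protein genes (red) and the other tested genes (grey). By cull day the difference falls with length, from a median of 0.34 in other genes below 500 bases to -0.12 in those of 2500 or more, with a rho of -0.43 in the members and -0.48 in the other genes, and by age no such slope is seen at this scale.

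The start of each gene was read for a run like a TOP tract. RefSeq promoter windows (GRCm38.p6) were held for 68 of the 89 members. A run of at least 5 letters, each C or T, beginning at a C within 10 bases of an annotated start was found on the coding strand in 40 of the 68, or 58.8%, against 33.3% of 27025 genes with a window and 43.5% of 69 mitochondrial ribosomal protein genes. A run of at least 8 was found in 35.3% of members, 9.09% of all genes and 7.25% of mitochondrial ones. The 40 include Rps27rt, whose window lies on chr9 and not at the row counted here. The window of Rpl37rt also lies outside its row, and holds no run of 5. The windows below show starts of members named in the results, with 15 bases before the start and 15 from it, 5′ to 3′, the run in capitals where there is one of at least 5 under this rule. A match is a description of letters, and starts as annotated can miss the base where transcription begins.
Rpl15, chr14:18270972-18271001, minus strand: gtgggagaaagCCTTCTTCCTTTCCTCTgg
Rps6, chr4:86857353-86857382, minus strand: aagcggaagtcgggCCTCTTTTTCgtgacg
Rplp2, chr7:141447636-141447665, plus strand: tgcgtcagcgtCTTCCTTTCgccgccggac
Rpl38, chr11:114668565-114668594, plus strand: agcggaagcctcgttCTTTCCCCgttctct
Rpl39, chrX:37085208-37085237, minus strand: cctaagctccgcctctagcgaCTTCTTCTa
Rps23, chr13:90923107-90923136, plus strand: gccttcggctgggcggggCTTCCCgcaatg
Rplp0, chr5:115559452-115559481, plus strand: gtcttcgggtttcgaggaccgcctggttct
Rps25, chr9:44407699-44407728, plus strand: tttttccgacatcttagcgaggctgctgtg
Rpl7l1, chr17:46782642-46782671, minus strand: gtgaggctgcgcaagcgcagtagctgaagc

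The run in Rpl15 was 17 letters long and that in Rps6 10, while Rplp0, Rps25 and Rpl7l1 had no run of 5 that began at a C within 10 bases of the start. The median cull day difference was 0.32 in the 36 tested members with one, of which 28 were called higher, and 0.28 in the 27 without, of which 14 were. Rpl38 and Rps25, one with and the other without such a run, were both among the 8 members with the smallest cull day p. By age the medians were 0.05 with a run and 0.04 without. No test was made of these differences.

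Paralogs were compared with their standard partners as ratios, which cancel a library's scaling. Of the 8 pairs considered, 5 had a median of at least 10 counts for both genes, and the old minus young log2 ratio was tested against all 31752 exact permutations of age inside each cull day. These p are two-sided and adjusted over the 5 pairs. The ratio of Rpl7l1, a Rpl7-like gene, to Rpl7 was lower in old mice by a log2 difference of -0.27 (exact permutation p = 0.00608, adjusted 0.0304). At the median Rpl7l1 stood at 26.2% of Rpl7 in young mice and 23.2% in old mice, and the ages overlapped.

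Rpl7l1 had 53.2, 57.3, 75.6, 69.2 and 67.0 CPM in young mice 1180, 1182, 1184, 1186 and 1188 and 45.5, 60.6, 53.2, 45.5 and 57.8 in old mice 1181, 1183, 1185, 1187 and 1189. On the second day it had 61.8, 58.9, 66.9, 64.6 and 53.7 CPM in the young and 61.4, 55.3, 51.6 and 60.2 in the old mice. The 3 highest values were those of the young mice with low Alb. Without them the difference of the ratio was -0.12 and the adjusted exact permutation p 0.252, so the call rests on those mice. Leaving out any of mice 1181, 1183, 1184, 1186, 1187 and 1188 singly also took the adjusted p past 0.05. The gene's own log2 difference by age was -0.20 ± 0.08 (SE), with an edgeR adjusted p of 0.0558.

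The other 4 ratios did not pass over both cull days. Rps27l, a paralog known as a p53 target, against Rps27 differed by -0.23 (exact permutation p = 0.0306, adjusted 0.0679), at -0.05 on the first and -0.40 on the second cull day. Rps27 shares its reads with the row Rps27rt, and the adjusted exact permutation p of this ratio fell to 0.0446 without young mouse 1180 and 0.0250 without old mouse 1185. Rps4l against Rps4x differed by -0.30 (exact permutation p = 0.0408, adjusted 0.0679), at 0.01 on the first and -0.61 on the second cull day, where it passed (adjusted exact permutation p = 0.0397). Without old mouse 1185 it also passed, at 0.0485. Few permutations of age exist within a single cull day, so a ratio can pass there only when the ages separate almost fully. Rpl36al against Rpl36a differed by -0.08 (exact permutation p = 0.198, adjusted 0.247) and Rpl22l1 against Rpl22 by -0.03 (exact permutation p = 0.768, adjusted 0.768). Rpl22l1 stood at 25.5% of Rpl22 in young mice and 25.8% in old mice, and Rpl36al at 196% and 184% of Rpl36a, as medians of ratios of counts that are not per length.

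Several other lists of the translation machinery held calls by age. Of 78 mitochondrial ribosomal protein genes, which serve the separate ribosome of mitochondria, 26 (33.3%) were lower and 0 higher by edgeR, with a median of -0.15, beside 14.5% lower and 16.3% higher over all tested genes. They included Mrps31 at -0.42, Mrpl38 at -0.39 and Mrps22 at -0.35. By cull day 33 of the 78 were higher and 0 lower, with a median of 0.23, beside 5.72% higher over all tested genes. The 26 became 14 with library totals as the scaling, where 9.55% of all genes were lower, and 6 with the other-cell covariate, where 5.75% were, so the last count lies near the share over all genes. The part of other cells in it was not otherwise tested.

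Of 42 initiation factors, 18 (42.9%) were lower and 0 higher in old mice, beside 14.5% and 16.3% of all tested genes, with a median of -0.17. Eif4e, which binds the cap, differed by -0.35, and Eif3j1 and Eif3j2, near-identical copies whose reads may be split between them, each by -0.42. Of 13 tested elongation and termination factors 5 (38.5%) were lower and 0 higher, among them the ribosome recycling factor Abce1 at -0.49, the release factor Gspt1 at -0.38 and Eif5a at -0.33. Of 106 tested ribosome assembly genes 25 (23.6%) were lower and 2 higher, with a median of -0.12, among them Pno1 at -0.42, Bop1 at -0.39 and Riok3 at -0.33, all involved in pre-ribosome maturation. The assembly count was 7 of 106 with the other-cell covariate and 14 of 106 without young mice 1184, 1186 and 1188, where 5.75% and 12.5% of all genes were lower, so both counts lie near those shares. The elongation count was 3 of 13 with the covariate.

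Translation genes outside the ribosome whose messages are known to carry TOP tracts had 4 (19.05%) lower and 1 higher of 21, near the 14.5% lower of all tested genes. Pabpc4, a poly(A)-binding protein, differed by -0.34, Eif2s3x by -0.28 and Hnrnpa1 by 0.36. Of 25 genes of the control of ribosome production 9 (36.0%) were lower and 1 higher: Rptor, the scaffold of mTOR complex 1, differed by -0.40, Eif4ebp3 by -1.28 and Mycn by 1.15. The 9 became 4 with library totals and 1 with the other-cell covariate, where 9.55% and 5.75% of all genes were lower. Of 14 RNA polymerase I genes 2 were lower and 2 higher (14.3% each), about the share over all genes, with Rrn3 at -0.26, Taf1b at 0.40 and Taf1a at 0.42. Of 5 genes of the p53 response to unassembled ribosomal proteins 1 (20%) passed, Trp53 at 0.26, near the 16.3% higher of all tested genes. Mdm4 (0.23), Cdkn1a (0.59), Mdm2 (-0.01) and Ccng1 (-0.07) did not pass. Whether the share of calls in any list differs from that of the ribosomal protein genes was not tested.

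**Figure D5:**
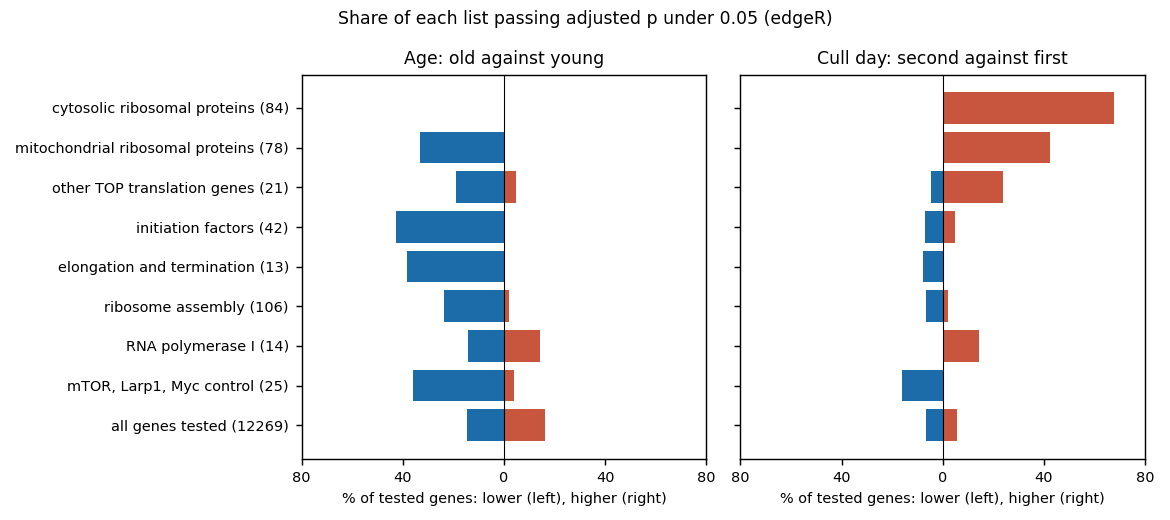
Percent of tested genes in each list that passed an edgeR adjusted p of 0.05, lower to the left and higher to the right, by age and by cull day, with the number tested in brackets. Cytosolic ribosomal protein genes had 0 of 84 by age and 57 of 84 higher by cull day. Without young mice 1184, 1186 and 1188, 0 of 84 and 0% of all genes passed by cull day. Mitochondrial ones had 26 of 78 lower by age and 33 of 78 higher by cull day. Of all tested genes 14.5% were lower and 16.3% higher by age, and 5.72% were higher by cull day.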

How the data were processed

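The authors deposited 1 table of estimated counts per gene for 19 libraries. Per the file headers it was written by HOMER over exons of RefSeq transcripts on mm10, condensed to genes and left raw. STAR is named in the submitters' processing notes. RNA came from a Trizol-chloroform extraction and a stranded paired-end library, per the labels. Versions, the strand setting and the handling of reads with several matches are not given in the sources used here.

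Values were multiples of 0.5 and were rounded to whole counts. The tests had been planned for plain counts and were kept. edgeR 4.0.16 (R 4.3.3) was run with TMM scaling, filterByExpr by age (minimum count 10), age and cull day as terms and adjustment over 12269 genes. Log2 CPM used a prior count of 2, paralog ratios a pseudocount of 0.5. RPKM used the table's exon lengths. GC content came from GENCODE M21 (GRCm38) and entered, with length, as splines of 4 degrees of freedom. Scripts were tested on simulated data. Each library is a separate mouse per the labels, so p-values measure the spread between mice. Alternatives used DESeq2 1.42.0, limma 3.58.1, other scalings, filters and left-out mice. Coordinates of genes are the table's.

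Named genes are the 8 members with the smallest p past the threshold in each direction, genes with defined roles or paralogs, the 3 highest and lowest per length, and the 3 smallest p in each list. The members and lists were chosen with earlier results of these data known. Added after the data were seen were the length and GC correction, unrounded counts, the totals in the column names, the fits by cull day within an age and, for cull day, every alternative except library totals, no filter and DESeq2.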

Additional observations from a re-analysis of the deposited data

Results flagged for a closer look

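CPM values of 30 members, and the members' share of counts, were examined for a mouse far from the others of its age, in 62 groups in all. Such a mouse was found in 3 groups, and chance flags about 1 in 20. Rpl36a was 87.3 CPM in old mouse 1242 and 42.8 to 63.3 in the other old mice. Rpl39 was 118 CPM in the same mouse and 51.5 to 84.5 in the other old mice. Rpl36al was 169 CPM in young mouse 1243 and 92.2 to 129 in the other young mice. Across all tested members, mouse 1242 had the highest value in 45 and mouse 1243 in 20.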

How the results depend on the processing

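No paired analysis was possible because library numbers are not shared between ages.

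The count of members called by age, 0, was 1 with DESeq2's size factors, with no filter and with DESeq2, each time Rpl7l1. It was 3 with totals without Alb and members, 11 with the length and GC correction, and 0 to 1 over the 19 fits that leave out a mouse (without 1180, 1183, 1236 or 1244 it was 1). The median by age ranged from 0.01 to 0.08 over those fits. The count by cull day was 5 in young mice alone, 0 in old mice alone, 0 without young mice 1184, 1186 and 1188, 4 with the length and GC correction, and 35 to 68 leaving out a mouse. Over the fits that leave out a mouse, 305 to 1139 of all genes were called higher by cull day, beside 702 in the main fit.

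With library totals, 9.55% of all genes were lower by age. Lower calls were then 14 of 78 mitochondrial ribosomal, 13 of 106 assembly and 2 of 21 TOP genes. They were 0 of 14 polymerase I and 4 of 25 control genes, and the assembly and TOP counts lie near the share over all genes. With the other-cell covariate they were 6, 7, 2, 0 and 1, and 3 of 13 in elongation, beside 5.75% of all genes. Without the 3 young mice they were 14 of 106 assembly and 0 polymerase I genes, beside 12.5% of all genes. With the length and GC correction they were 4 polymerase I genes, beside 16.5% of all genes.

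The Rpl7l1 ratio was -0.33 and -0.20 on the first and second cull day alone, -0.12 without the 3 young mice and -0.30 to -0.23 leaving out a mouse, and did not pass in the first 3. A single cull day has few permutations of age, so a miss there says little. The Rps4l ratio was 0.0123 on the first day and -0.61 on the second, where it passed, and ran from -0.33 to -0.24 leaving out a mouse, passing without 1185. Likewise the Rps27l ratio ran from -0.27 to -0.20, passing without mouse 1180 or 1185, and the Rpl22l1 ratio from -0.0697 to 0.0198. The share of members with a pyrimidine run was 77.9% within 20 bases and 35.3% for runs of 8. The cause of these shifts was not tested.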
